A study of Danio rerio with 5 samples.

Results

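Crystallins are the structural proteins of the eye lens. The beta- and gamma-crystallins share a common fold and are packed at high concentration in lens fibre cells, and MIP, also called aquaporin 0, is the water channel of lens fibre membranes. They are known as products of the lens and are not known as products of blood cells. The genes described here are those with the symbols cryba1b, CRYBA4, cryba1l1, crygmx, crybb1l1, CRYGN, CRYBA2 and MIP, taken in any case and with every gene ID of a symbol. These 8 symbols matched 10 of the 23628 gene IDs in the plate tables, because CRYBA2 and MIP each stand for 2 IDs. Which paralog each of these IDs is was not told by the name table, so the IDs are given with their symbols. Another ID with the symbol CRYGN was not analysed here. The symbols were chosen with results of these same cells in view, so their presence in the cells is a description and was not tested.

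The cells came from whole zebrafish embryos at 3 days post fertilization that carried the transgene runx1+23:mCherry, in which a Runx1 enhancer drives a red fluorescent protein in blood stem and progenitor cells. Embryos had been injected with a morpholino against irf8, a transcription factor that macrophage development requires, or with a standard control morpholino. Live mCherry-positive cells from the dissociated embryos were sorted singly into 384-well plates and their RNA was sequenced by SORT-seq, which tags each cell and each molecule. On each of the 5 plates, irf8 morphant cells were in wells 189 to 384 and standard control cells in wells 1 to 188, so that position on the plate and morpholino cannot be told apart. The transgene was the same in both groups, and the number of embryos behind a plate was not given in the sources used here.

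Of 1920 wells, 933 had at least 1000 transcripts and were kept, 466 of 980 irf8 wells and 467 of 940 standard control wells. A plate held 10 to 143 kept irf8 wells and 34 to 151 kept standard control wells, and a kept well had a median of 6910 transcripts in irf8 morphants and 4763 in standard controls. Only 10 irf8 wells of plate 5 were kept, 1 of which held 37.3% of their transcripts, and 1 well held 48.6% of the standard control transcripts of plate 3. The sorted cells were labelled as blood stem and progenitor cells, but globins took 10% or more of the transcripts in 571 of 933 kept wells (61.2%), here called globin-rich, and these wells were nearly all on plates 1, 2 and 4.

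Lens transcripts were concentrated in a handful of wells. The members together had 22963 transcripts in kept wells, of which 4 wells held 84.7%. In 8 wells (0.857% of the kept wells) the members made up at least 1% of all transcripts, and these wells, here called lens-rich, held 86.1% of the member transcripts. Outside them, 667 wells carried a trace of at least 1 member transcript and 258 carried none. The trace was small, with a median of 3 member transcripts per well, and 326 of the 675 wells with a member had only 1 or 2 molecules.

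**Figure D1:**
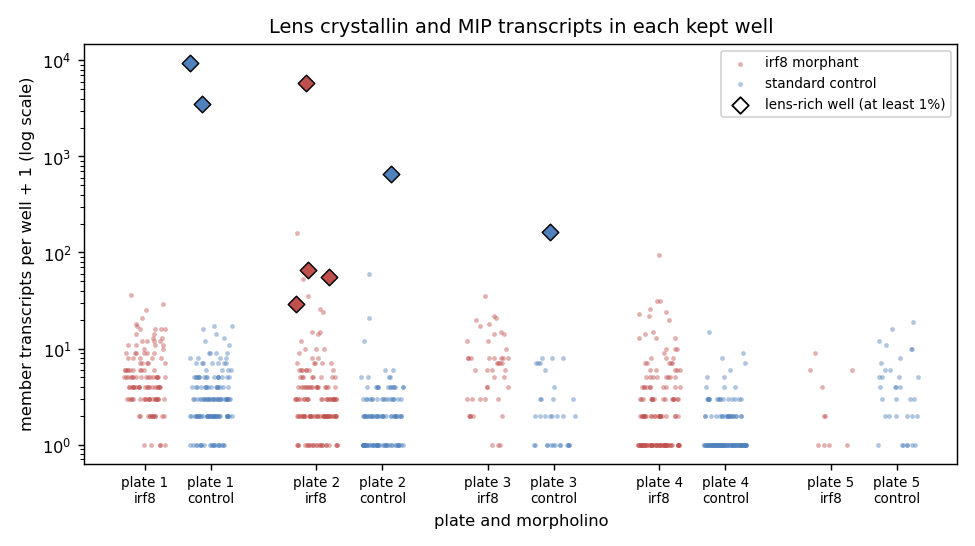
Member transcripts in each of the 933 kept wells (1 point per well), plus 1, on a log axis, by plate and morpholino, with irf8 wells left of standard control wells; diamonds are the 8 lens-rich wells. The 3 highest wells had 9392, 5855 and 3555 member transcripts, and most other wells had fewer than 10.

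The 8 lens-rich wells were divided evenly, with 4 from irf8 morphants and 4 from standard controls. All 4 irf8 wells were on plate 2. Well 284 stood far above the other three, with 5855 member transcripts, 17.7% of its 33023 transcripts. The other irf8 wells were at or near the limit, with 2.04% in well 200 (28.0 of 1376 transcripts), 1.06% in well 289 (64.1 of 6042) and 1.05% in well 338 (55.1 of 5253). The standard control wells lay above and below well 284. In well 168 of plate 1, 30.7% of 30558 transcripts came from members, and in well 33 of the same plate 23.7% of 15010 transcripts. Well 78 of plate 3 had 163 member transcripts in a shallow library of 1816 (8.95%), and well 74 of plate 2 had 657 of 14211 (4.62%).

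Just under the 1% limit stood well 189 of plate 2 (irf8, 0.879%), well 137 of plate 3 (standard control, 0.631%), well 78 of plate 2 (standard control, 0.603%) and well 203 of plate 1 (irf8, 0.592%). There was thus no gap at the limit itself, while the 5 wells above 4% were set apart from all others. Plates 4 and 5 had no lens-rich well, which allows a share of up to 1.1% of 273 kept wells on plate 4 and of up to 6.67% of 45 on plate 5, for counting error only. The wells numbered directly before and after the lens-rich wells held 0 to 5 member transcripts.

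Each member with a high count was high in the same few wells. cryba1b, a beta-A1 crystallin and the most abundant member, had 4305 transcripts in kept wells, of which 916 were in irf8 well 284 and 2017 in standard control well 168. CRYGN, a gamma-N crystallin, followed with 3629 transcripts, of which 698 were in well 284 and 1760 in well 168. The basic beta-B1-like crystallin crybb1l1 (3146 transcripts) and the acidic beta-A1-like crystallin cryba1l1 (3160) came next, and in the RefSeq annotation the 2 genes are neighbours with 0 coding genes between them. CRYBA4, a beta-A4 crystallin, had 1857 transcripts, 88.3% of them in lens-rich wells.

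The 2 CRYBA2 IDs, both beta-A2 crystallins, differed in level. ENSDARG00000041925 had 2582 transcripts in 259 wells, and ENSDARG00000030349 had 1085 in 130 wells. Levels are compared here as tagged transcript ends per gene and not per gene length, since SORT-seq counts 1 end of each transcript.

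The MIP IDs and crygmx were the least widespread members. crygmx, a gamma-crystallin of the methionine-rich fish group, had 1045 transcripts in 83 wells. MIP ENSDARG00000013963 had 1257 in 115 wells and MIP ENSDARG00000037285 had 898 in 58 wells. All 3 were highest in irf8 well 284, with 540, 733 and 489 transcripts, whereas the other 7 IDs were highest in standard control well 168. Over the 10 IDs, lens-rich wells held 83.1% to 90.8% of the transcripts, and the share of kept wells with at least 1 transcript ran from 6.22% (MIP ENSDARG00000037285) to 32.0% (CRYGN). In every ID the median over wells that carried it was 1 transcript.

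Other lens genes were also found in the lens-rich wells, to unlike extents. Of 38 other crystallin IDs, 28 were found in at least 1 lens-rich well, as were 12 of 18 IDs for lens fibre proteins and lens regulators. In the 925 other kept wells together, 36 and 18 of these IDs were found. Other crystallins took 9.79% of the pooled transcripts of lens-rich wells, against 0.0375% in other kept wells. Standard control well 168 carried 26 other crystallin IDs and 10 lens fibre or regulator IDs, and irf8 well 200 carried 3 and 2. With all these lists together, lens genes took 23.8% of the transcripts in irf8 well 284, 54.5% in standard control well 168 and 41.8% in standard control well 33. CRYBB1, the beta-B1 crystallin gene that neighbours CRYBA4 in the RefSeq annotation, had 1231 transcripts in well 284, 2938 in well 168 and 1127 in well 33. crybb1l2 (1066 transcripts in lens-rich wells) and the methionine-rich gamma-crystallins crygm2d13 (566), crygm2d17 (528) and crygmxl2 (422) followed.

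LIM2, a membrane protein of lens fibres (ENSDARG00000015445), had 148 transcripts in irf8 well 284, 386 in standard control well 168 and 190 in well 33. Its relatives lim2.1 and lim2.3 had 425 and 384 transcripts in lens-rich wells, a second LIM2 ID (ENSDARG00000041295) had 223, and BFSP1, a subunit of the beaded filament of lens fibres, had 196. Between 78.0% and 92.8% of the transcripts of these 5 IDs were in lens-rich wells.

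Genes of other cell types had low median shares in the lens-rich wells, as in the other kept wells. The highest shares in the 925 other kept wells were far larger, at 35.3% for the epidermis and cornea list and 31.6% for muscle. In the 8 lens-rich wells the highest were 0.727% and 1.76%. All 21 retina IDs and all 7 pigment cell IDs were at 0 in each of the 8 lens-rich wells, and the median share of both lists was 0 in the other kept wells as well. Genes of the epidermis and cornea list, with 10 of 15 IDs seen, took a median of 0.123% of a lens-rich well's transcripts, against 0.136% in other kept wells. Muscle genes took a median of 0.0867% against 0.346%, and reached 1.76% in standard control well 78. Blood stem and progenitor genes, with 3 of 8 IDs seen, took a median of 0.0574% against 0.0887%. They reached 0.447% in standard control well 74 (63.5 transcripts, all from a single ID of the list), where the highest share in other kept wells was 2.37%. These shares are a description of 8 wells.

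The lens-rich wells did not all have the same mix of members. MIP and crygmx together made up 30.1% of the member transcripts in irf8 well 284, 28.6% in irf8 well 200 and 26.6% in irf8 well 289, but 1.82% in irf8 well 338. In standard controls they made up 25.3% in well 74, 12.5% in well 33, 4.83% in well 168 and 1.85% in well 78. The 4 wells with a high share were all on plate 2, where both morpholinos were represented among them, and well 338 of the same plate was low.

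The crygm2d genes, a set of 18 methionine-rich gamma-crystallin IDs that are not members, went the other way. For every 100 member transcripts there were 0.239 crygm2d transcripts in irf8 well 284, 0 in well 200, 3.12 in well 289 and 56.3 in well 338. There were 1.83 in standard control well 74, 18.9 in well 33, 24.1 in well 168 and 80.1 in well 78. Wells rich in MIP and crygmx were thus nearly free of crygm2d transcripts. The crygm2d sequences are close to each other, so the division of counts among them is uncertain, while their sum is less so. Wells 200, 289, 338 and 78 had 28.0 to 163 member transcripts, so their mixes rest on few molecules.

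**Figure D2:**
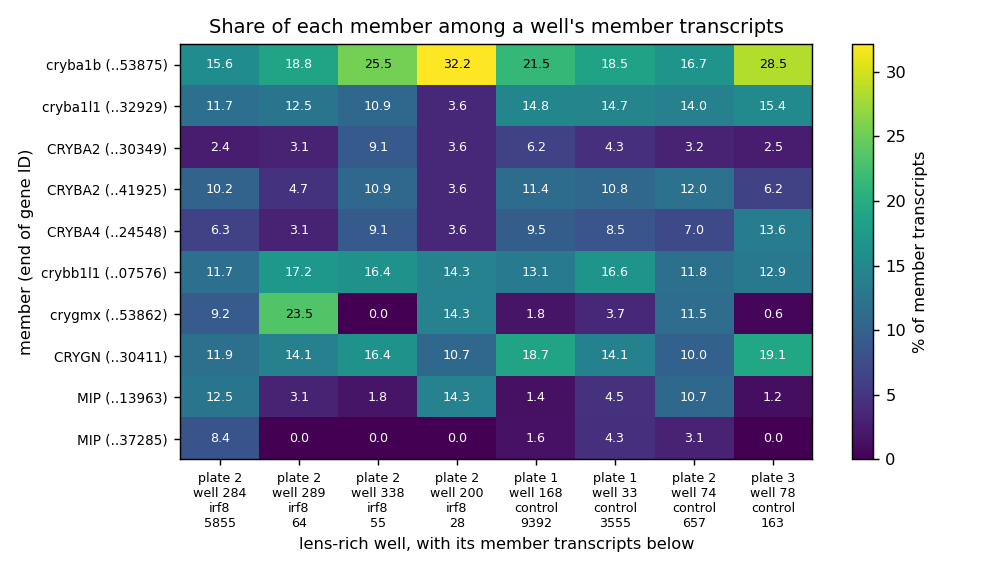
Share of each member ID (rows) among the member transcripts of each lens-rich well (columns; irf8 wells first, then standard control wells, with the number of member transcripts under each), in percent. crygmx and MIP ENSDARG00000013963 made up 9.22% and 12.5% in irf8 well 284, against 1.78% and 1.42% in standard control well 168.

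Some lens-rich wells were globin-rich and others were not. Of the 8 lens-rich wells, 3 were globin-rich (37.5%, 95% Wilson interval 13.7% to 69.4%), against 568 of 925 other kept wells (61.4%, 58.2% to 64.5%). The interval for the 8 lens-rich wells covers counting error only. The other kept wells are pooled over 5 plates, and their globin-rich share ran from 0% on plate 3 to 75.8% on plate 4. The members were chosen from these same cells, so no test is given. Plate by plate the counts were 1 of 2 against 185 of 274 on plate 1, 2 of 5 against 174 of 254 on plate 2 and 0 of 1 against 0 of 79 on plate 3.

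The 2 lens-rich wells with the highest globin share were at the edge of the lens-rich limit. In irf8 well 289 globins took 53.8% of transcripts (3248) beside 64.1 member transcripts, and in irf8 well 338 they took 23.1% (1214) beside 55.1. The third globin-rich well was standard control well 33, with 10.7% globin (1601 transcripts) beside 23.7% from members. With 25% globin as the limit, 1 lens-rich well (12.5%) would be globin-rich, against 55.8% of the other kept wells, and with 5% as the limit 4 would be (50%), against 63.6%. Among the other wells with many member transcripts, irf8 well 284 had 7.21% globin (2379 transcripts), standard control well 168 had 0.356% (109), well 74 had 0.686% (97.5) and well 78 had 0.

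The number of globin transcripts in a lens-rich well was within the range of the wells around it. Of the 141 other kept irf8 wells of plate 2, 72 had more globin transcripts than well 284, and the median of the 141 was 2458. The 30 irf8 wells of that plate that were neither globin-rich nor lens-rich had a median of 86.5 and a highest value of 5198, beside 2379 in well 284. Of the 150 other kept standard control wells of plate 1, 73 had more than well 33, with a median of 1443, and 100 had more than well 168. The 54 standard control wells of that plate that were neither globin-rich nor lens-rich had a median of 47.1 globin transcripts, below the 109 in well 168. These wells were less deep, with a median of 7990 transcripts, against 30558 in well 168. As a share of transcripts the order was the reverse, with a median of 0.577% against 0.356% in well 168.

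hbae3 was the largest part of the globin in these wells, as in the globin-rich wells around them. hbae3, an embryonic alpha globin, made up 43.8% of the globin in irf8 well 284, 47.0% in irf8 well 289 and 57.1% in irf8 well 338, against 56.6% in the other globin-rich wells of plate 2. The same gene made up 49.7% in standard control well 33, against 54.2% in the other globin-rich wells of plate 1. HBE1 (ENSDARG00000087390) made up 28.2% in well 284, 20.1% in well 289 and 15.8% in well 338, against 22.2% on plate 2, and 27.1% in well 33, against 24.3% on plate 1. hbbe3, an embryonic beta globin, made up 13.2% in well 284, 21.0% in well 289 and 10.5% in well 338, against 6.53% on plate 2, and 0.313% in well 33, against 4.48% on plate 1. In standard control wells 168 and 74, with little globin, hbae3 made up 68.7% and 65.1%. Single wells differ from each other in this mix, and these differences were not tested.

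Erythroid genes other than globins were found beside the globin. SLC4A1, the red cell anion exchanger (ENSDARG00000012881), had 31.1 transcripts in irf8 well 284, 49.3 in well 289, 37.2 in well 338 and 12 in standard control well 33. cahz, a red cell carbonic anhydrase, had 20, 65.5, 27.1 and 17.0 in the same 4 wells, and alas2, the first enzyme of erythroid haem synthesis, had 13.0, 34.1, 44.2 and 8.01. Per 100 globin transcripts the erythroid list gave 3.75 in well 284, 6.46 in well 289, 16.6 in well 338 and 3.38 in well 33, against 6.77 in the other globin-rich wells of plate 2 and 5.99 in those of plate 1. hemgn and nt5c2l1 had 39.0 and 27.0 transcripts over all lens-rich wells. In well 168 the whole list had 10.0 transcripts.

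**Figure D3:**
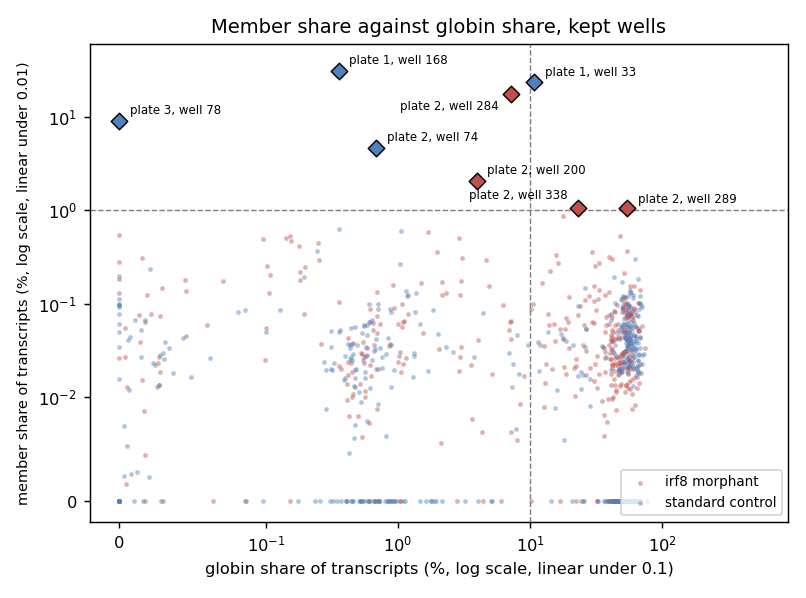
Share of transcripts from the members (vertical axis) against the share from globins (horizontal axis), in percent on log axes that are linear near 0, for each of the 933 kept wells. Dashed lines mark 1% and 10%, diamonds are the 8 lens-rich wells, and 3 of these lie right of the globin line.

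The trace of member transcripts was found both in globin-rich wells and in other wells. With the 8 lens-rich wells counted, at least 1 member transcript was present in 398 of 571 globin-rich wells (69.7%, median depth 5224 transcripts). It was present in 277 of 362 other wells (76.5%, median depth 7806). Of the 667 trace wells 395 were globin-rich, and of the 258 wells with no member 173 were. After each well was thinned to 1000 molecules by a single random draw, with no well left out, the shares were 29.6% and 32.0%. These pool the plates, although plate 3 had 0 globin-rich wells and plate 5 had 2. Within plates the thinned shares, globin-rich against other wells, had no common order. In irf8 morphants they were 55.6% against 45.7% on plate 1, 26.4% against 31.25% on plate 2 and 18.4% against 20.7% on plate 4. In standard controls they were 37.5% against 34.5%, 30.3% against 21.6% and 12.9% against 5.41%. The share of wells with a member was not read as expression, and the source of the trace was not tested. Wells with a trace were deeper, with a median of 6387 transcripts, against 4219 in wells with none.

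Summed over the wells of a plate, the trace held more CRYBB1 per member transcript than the lens-rich wells did. On plate 1, CRYBB1 had 112 transcripts for every 100 member transcripts in trace wells, against 31.4 in lens-rich wells, on plate 2 it had 40.4 against 21.9, and on plate 3 it had 42.8 against 21.6. Well 284 held 5855 of the 6660 member transcripts in lens-rich wells of plate 2, and plate 3 had 1 lens-rich well. The order did not hold in every well: irf8 well 338 of plate 2 had 35.1 CRYBB1 transcripts beside 55.1 member transcripts, above the trace of its plate. CRYBB1 was found in 615 of 933 kept wells (65.9%), more than any member. crygm2d transcripts had no common direction: per 100 member transcripts they were 20.4 in trace wells, against 22.7 in lens-rich wells, on plate 1, 17.5 against 0.886 on plate 2, and 47.1 against 80.1 on plate 3. Plates 4 and 5, with no lens-rich well among those kept, had 29.4 and 58.1 in trace wells.

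Outside the lens-rich wells, the most member transcripts were in irf8 well 270 of plate 2 (157 of 126114 transcripts, 0.125%) and irf8 well 199 of plate 4 (93.1 of 41205, 0.226%), both of them deep libraries.

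Over all 933 kept wells, the genes whose level followed the members most closely were the members and other lens genes. Among 13476 genes with a transcript in at least 20 kept wells, the 10 with the highest Pearson correlation to the summed members (log2 of transcripts per 10000 plus 1) were 9 member IDs, from 0.68 for cryba1b to 0.49 for crygmx, and CRYBB1 (0.57). The members are part of the sum, and wells share a plate and differ in depth, so this is a description. Without the 8 lens-rich wells the value for CRYBB1 was 0.48, while values for lens fibre genes were lower: lim2.1 had 0.097 against 0.37 with all wells, lim2.3 0.097 against 0.38 and LIM2 ENSDARG00000015445 0.13 against 0.36. The likeness of these genes to the members thus rested largely on the lens-rich wells. Of the top 40 genes over all kept wells, 32 were on the lens lists and 0 on the globin or erythroid lists, where the highest was ANK1 (0.12, rank 206).

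Whether the members differed between irf8 morphants and standard controls was compared over the 5 plates. The members took 0.113% ± 0.161 of transcripts in irf8 morphants and 0.262% ± 0.482 in standard controls (SD, n = 5 plates each). By plate, 1 to 5, the share was 0.0573%, 0.400%, 0.0572%, 0.0267% and 0.0252% in irf8 morphants, against 1.12%, 0.113%, 0.0381%, 0.0117% and 0.0251% in standard controls. On 4 of 5 plates the irf8 value was the higher one, and on plate 5 the 2 values were nearly equal. The mean difference of -0.148 percentage points was smaller than its SD over plates (0.525). It turned on wells 168 and 33: without plate 1 it was 0.0803 percentage points. Since the members were chosen with results of these cells known, no p is given for their sum.

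At least 1 member transcript was found in 96.0%, 84.5%, 93.5%, 60.8% and 60% of kept irf8 wells on plates 1 to 5, against 86.8%, 62.4%, 61.8%, 35.4% and 80% of standard control wells. The means were 79.0% ± 17.5 in irf8 morphants and 65.3% ± 20 in standard controls (SD, n = 5 plates each), a difference of 13.7 percentage points with an SD over plates of 20.5. irf8 wells were deeper on plates 1, 2 and 4. Thinned to 1000 molecules, the shares were 52.8%, 27.5%, 65.2%, 18.9% and 40% in irf8 morphants, against 36.4%, 26.5%, 20.6%, 10.8% and 34.3% in standard controls. In this thinning, a single random draw per well, the share was higher in irf8 wells on all 5 plates, by least on plate 2 and by most on plate 3. The draw was not repeated, so whether the small gap on plate 2 would hold in another draw is not known. Plate 5 had only 10 kept irf8 wells, and its order was the reverse before thinning.

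Lens-rich wells made up 2.82% of the kept irf8 wells of plate 2 and none on the other plates, a mean of 0.563% ± 1.26. In standard controls they made up a mean of 1.02% ± 1.21 (SD, n = 5 plates each), with 2 wells on plate 1 and 1 each on plates 2 and 3. The groups overlapped, and the difference of -0.461 percentage points was smaller than its SD over plates (1.82).

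With the 8 lens-rich wells left out, a choice made after the data were seen, the members had 573, 390, 572, 267 and 252 transcripts per 1000000 on plates 1 to 5 in irf8 morphants, against 374, 290, 107, 117 and 251 in standard controls. The trace was higher in irf8 morphants on plates 1 to 4, by ratios of 1.53, 1.34, 5.36 and 2.28, and on plate 5, where it rested on 23.0 member transcripts in 10 irf8 wells, the 2 values were about equal (ratio 1.01). The means were 411 ± 157 in irf8 morphants and 228 ± 115 in standard controls (SD, n = 5 plates each), and the mean difference of 183 was about as large as its SD over plates (174). Median depth was higher in irf8 wells on plates 1, 2 and 4. It was lower on plate 3 (3764 transcripts, against 5388 in standard controls) and on plate 5 (4737 against 6000). On plate 3, where the ratio was largest, 1 well held 48.6% of the standard control transcripts. Whether depth played a part in the trace was not tested. Position on the plate and morpholino cannot be told apart. The order did not hold in every piece of a plate: in irf8 morphants of plate 2, wells up to 286 had 548 member transcripts per 1000000 and later wells 184, and in standard controls of plate 4, wells up to 94 had 40.7 and later wells 174.

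**Figure D4:**
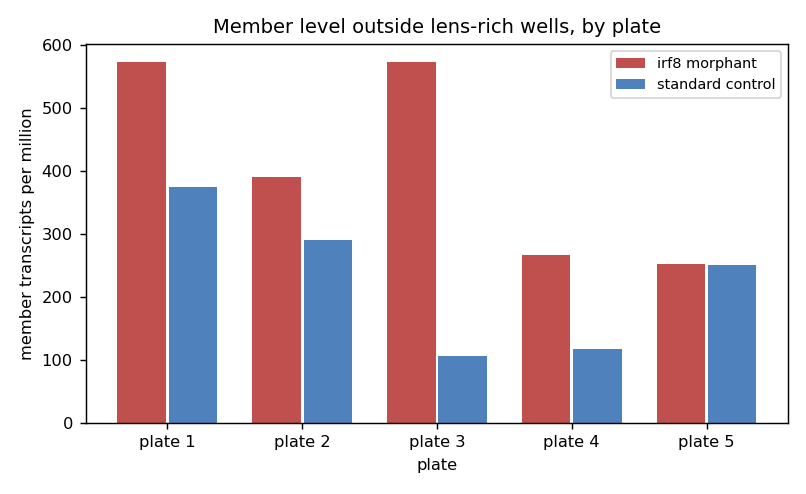
Member transcripts per 1000000 in kept wells outside the 8 lens-rich wells, by plate, with irf8 morphants (left bar of each pair) and standard controls (right bar), 1 sum per bar. The largest gap was on plate 3, 572 against 107, and plate 5 showed none, 252 against 251.

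The members were then read from an edgeR quasi-likelihood fit on all genes, with transcripts summed per plate and morpholino and the plate as a block. Of the 10 member IDs, 9 passed the filter on low counts and 0 were called at an adjusted p of 0.05 (Benjamini-Hochberg over 7141 genes), where 0.014% of all genes tested were called. None had an unadjusted p under 0.05, against 9.4% of all genes. DESeq2 called 0 of 10 members and 103 of 23467 genes. The log2 fold changes, irf8 over standard control, ran from -0.17 to 0.58 with a median of 0.35, against -0.03 over all genes, and 6 members were higher and 3 lower in irf8 morphants. Adjusted p-values in edgeR ran from 0.917 to 0.999.

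cryba1b had 82.1, 632, 121, 57.3 and 21.9 transcripts per 1000000 on plates 1 to 5 in irf8 morphants, against 2272, 181, 105, 23.8 and 49.4 in standard controls. The groups overlapped, with the highest value of each group coming from a plate with a lens-rich well. Its log2 fold change was -0.11 (SE 1.01, adjusted p = 0.998 in edgeR). Here and below, the SE was derived from the fold change and the F statistic of the edgeR test.

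MIP ENSDARG00000013963, the member with the largest fitted change, had 18.0, 475, 17.3, 11.1 and 21.9 transcripts per 1000000 in irf8 morphants, against 254, 124, 6.75, 2.17 and 11 in standard controls. The irf8 level was above the standard control level on plates 2 to 5 and far below it on plate 1. Its log2 fold change was 0.58 (SE 1.00, adjusted p = 0.917 in edgeR). The other MIP ID, ENSDARG00000037285, did not pass the filter and had 4.92, 307, 3.47, 11.1 and 0 transcripts per 1000000 in irf8 morphants, against 264, 46.2, 3.38, 2.17 and 1.83 in standard controls.

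crygmx had 7.38, 359, 26.0, 14.4 and 0 transcripts per 1000000 in irf8 morphants, against 251, 112, 8.44, 2.17 and 3.66 in standard controls, again with the high values on plates with lens-rich wells. CRYGN had 130, 480, 85.0, 33.2 and 21.9 in irf8 morphants, against 1983, 131, 60.9, 19.5 and 54.9 in standard controls. Their log2 fold changes were 0.47 (SE 1.22) and -0.13 (SE 0.89), with adjusted p-values in edgeR of 0.960 and 0.994. The other 5 tested IDs lay between -0.17 and 0.39.

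The direction of these changes was set by single plates. Without plate 1, the 8 members tested were all higher in irf8 morphants (median log2 fold change 1.16), where 48.3% of all genes were. Without plate 2 the 8 tested were all lower (median -0.44), where 46.9% of all genes were higher. edgeR called 0 members in either fit. It also called 0 of 6299 genes without plate 1 and 0 of 6756 without plate 2. At an unadjusted p under 0.05 there were 4 members without plate 1, against 6.81% of all genes, and 0 without plate 2, against 5.85% of all genes. Without the 8 lens-rich wells, the 8 members tested were all higher in irf8 morphants, where 47.5% of all genes were. Their log2 fold changes then ran from 0.65 (CRYGN, SE 0.54) to 1.2 (CRYBA4, SE 0.53), with a median of 1.01, and their adjusted p-values from 0.404 to 0.764. Of these 8, 5 had an unadjusted p under 0.05, against 9.55% of all genes, and 0 were called, against 0.014%. The wells left out were picked by the share of these same members, and no other gene was trimmed on its own values. The shares over all genes are therefore not a like comparison, and nothing is concluded from this fit about a difference between morpholinos. The members occur in the same wells, so their fold changes are not independent of each other.

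**Figure D5:**
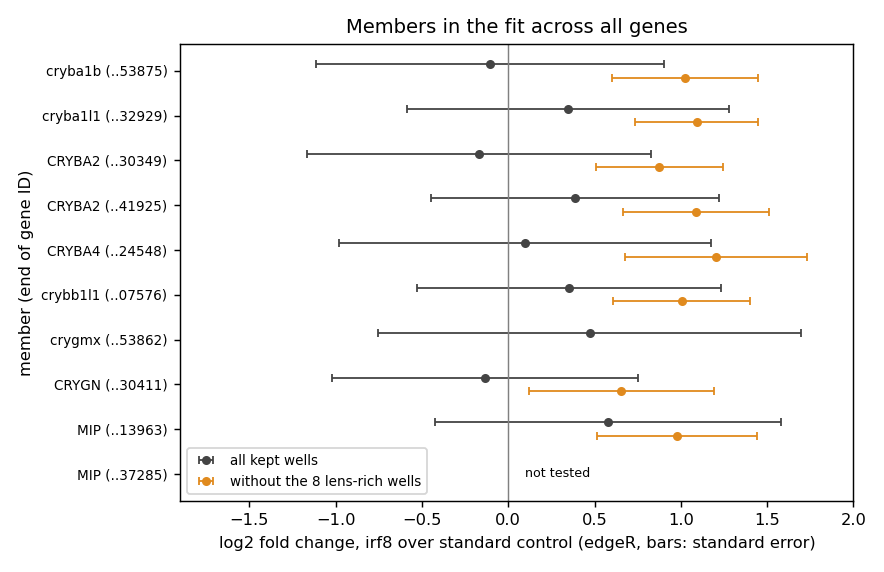
Log2 fold change of each member ID, irf8 over standard control, from the edgeR fit across all genes with plate as a block, for all kept wells (grey) and without the 8 lens-rich wells (orange). Bars are standard errors derived from the fold change and the F statistic. In all kept wells the values ran from -0.17 to 0.58, and without the lens-rich wells, which were picked by the members' own share, from 0.65 to 1.2. MIP ENSDARG00000037285 was tested in neither fit, and crygmx only in the first.

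Among the lists set beside the members, 8 of 38 other crystallin IDs were tested and all 8 were lower in irf8 morphants (median log2 fold change -0.48, 0 called and 0 at an unadjusted p under 0.05 in edgeR), where 47.1% of all genes were higher in irf8 morphants. Single wells weighed heavily in this list. Of 7788 CRYBB1 transcripts, standard control wells 168 and 33 of plate 1 held 2938 and 1127, and irf8 well 284 held 1231. Of 740 crygm2d13 transcripts, these wells held 384, 146 and 8.01. The direction of this list without these wells was not examined. Of the lens fibre and regulator IDs 2 of 18 were tested, with 1 higher and 1 lower. Of the globins 9 of 12 were tested, with 4 higher and 5 lower, and of the other erythroid IDs 21 of 24, with 18 higher and 3 lower (median 0.53). None of these was called by edgeR, and 2 of 9 globins and 6 of 21 other erythroid IDs had an unadjusted p under 0.05, against 9.4% of all genes.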

How the data were processed

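Single-cell RNA-seq (SORT-seq) of sorted runx1+23:mCherry cells was analysed as 5 plates of 384 wells, each plate with both morpholinos in the well ranges the labels give. The authors deposited 1 table per plate of estimated counts (expected transcript counts per gene and well): molecular tags corrected for collisions in a space of 4096 tags. All values mapped back to whole molecules within 1e-06. The submitters' processing notes name BWA, Seurat and GRCz11. A plate's table lists only genes with a transcript on it. Gene names came from a table of IDs and symbols (18186 of 23628 IDs matched) and neighbours from RefSeq.

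Spike-ins (6.31% of kept wells' counts) were left out, and wells with at least 1000 transcripts were kept. No doublet caller was run. Cells were sorted singly into wells, and whether any well held material from more than 1 cell was not tested. The same well numbers occur on every plate, so they show no shared cells. A well was lens-rich at 1% of transcripts from members and globin-rich at 10% from globins. Counts were summed per plate and morpholino (91151 to 2078384 transcripts), rounded, and tested with edgeR 4.0.16 (filterByExpr, TMM, quasi-likelihood, plate as block) in R 4.3.3, with DESeq2 1.42.0 as an alternative. The plate pairs the sums because both morpholinos were on it. Whether plates came from separate clutches was not given, so spread between plates may be technical. Shares were compared by plate in Python 3.11.15. An exact sign-flip test was fixed for them, but no p is printed for sums over the members, and 5 plates could not give one below 0.0625. Wilson intervals and the limits that a count of 0 allows (3 counts) cover counting error only. The edgeR step was tested on simulated data with known changes, larger than any fitted for a member. The simulation had no plate effect and the same spread for every gene. It therefore does not bear on error or power for members that rest on single wells. Standard errors of the edgeR fit were taken as the absolute log2 fold change divided by the square root of the F statistic.

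The members and all gene lists were chosen with earlier results of these data known. Named genes were all members, up to 5 genes per list with the most transcripts in lens-rich wells, and the 10 genes most alike. ANK1 and the second LIM2 ID were named after their values were seen. Alternatives were other well filters, limits, scalings, count filters and leaving out each plate. No sequence is shown.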

Additional observations from a re-analysis of the deposited data

Results flagged for a closer look

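Of 6 groups of 5 plates examined, 3 had a plate far from the others by Dixon's criterion, which chance meets in about 1 of 20 groups of normally distributed values. That rate does not hold for these values, which rest on a few wells, and with 4 plates at 0 any other value on the remaining plate meets the criterion. The members took 0.400% of transcripts in irf8 morphants of plate 2, the plate of well 284, and 1.12% in standard controls of plate 1, the plate of wells 168 and 33. Lens-rich wells made up 2.82% of kept irf8 wells on plate 2 and 0 on the other plates.

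Member transcripts were also present in wells under the 1000-transcript filter, which no comparison above uses. They took 0.199% of the transcripts in such irf8 wells (186 transcripts, in 104 of 514 wells) and 0.147% in such standard control wells (125 transcripts, in 74 of 473 wells). By plate, 1 to 5, they had 3171, 2509, 1709, 522 and 1600 per 1000000 in irf8 wells, against 2143, 1480, 1342, 651 and 1770 in standard control wells, above the levels of the trace in kept wells on every plate. The trace leaves out lens-rich wells, while no well was left out of these sums for its member share. With lens-rich wells counted, kept wells had more in irf8 morphants of plate 2 (3997) and standard controls of plate 1 (11204). The most in 1 such well was 11 transcripts.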

How the results depend on the processing

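The difference in the share of transcripts on the members turned round without the lens-rich wells (0.0183 percentage points) and ran from -0.257 to 0.0803 when each plate was left out. The difference in lens-rich wells became 0.125 percentage points with wells of at least 500 transcripts and 13.4 with a limit of 0.1%, and ran from -1.07 to 0.159 over the plates left out. The difference in wells with a member kept its direction in all 12 alternatives (7.05 to 22.1). The share of lens-rich wells that were globin-rich was 12.5% with a 25% globin limit and 25% to 50% in the other settings. edgeR called 1 gene. DESeq2 called 103, no count filter gave 356, and at least 10 counts in every sum gave 114, with no member left to test. No replicate block gave 0, and leaving out plates 0 to 1. The plate pairs the sums, so the block is the design. No member was called in any alternative.

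Member log2 fold changes turned round as follows, in fits with 0 members called. Without the lens-rich wells they were 1.02 for cryba1b, 0.88 for CRYBA2 ENSDARG00000030349 and 0.65 for CRYGN. With wells of at least 2000 transcripts they were 0.42, 0.13 and 0.37 for the same 3, and with at least 500 transcripts 0.29 for cryba1b. With no replicate block they were -1.42 for cryba1l1, -1.26 for CRYBA2 ENSDARG00000041925, -1.65 for CRYBA4 and -1.33 for crybb1l1. Without the top member well of each plate they were -0.082 for cryba1l1, -0.037 for CRYBA2 ENSDARG00000041925, -0.19 for CRYBA4 and -0.65 for MIP ENSDARG00000013963. Over the plates left out they ran from -0.83 to 0.80 for cryba1b, -0.11 to 1.21 for cryba1l1, -0.94 to 0.92 for CRYBA2 ENSDARG00000030349, -0.060 to 1.27 for CRYBA2 ENSDARG00000041925, -0.62 to 1.12 for CRYBA4, -0.19 to 1.2 for crybb1l1, -0.26 to 0.54 for crygmx, -0.84 to 0.73 for CRYGN and -0.26 to 1.73 for MIP ENSDARG00000013963. The cause was not tested beyond what each setting leaves out.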
